A study of Mus musculus with 7 samples.

Results

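The plasminogen activation system was examined as 7 genes, chosen by symbol with earlier results of these data in view: *Plau*, *Plat*, *Plaur*, *Serpine2*, *Serpinf2*, *Plg* and *Anxa2*. All 7 were found among the 23284 gene symbols of the series. Of these, 5 averaged 0.5 FPKM or more and were among the 12299 genes fitted, and 2 (*Serpinf2* and *Plg*) were below that level. Because TG and CTR levels in these same papillomas played a part in the choice, the levels of the 7 genes are given as a description with no test.

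RNA from papillomas, the benign outgrowths of the epidermis that precede squamous cell carcinoma, was sequenced from 4 CTR and 3 TG mice, each library from a different animal. All mice were age-matched adults on a C57Bl/6 background, carried the doxycycline-responsive *tetO-Nanog* allele and drank doxycycline at 2 mg/ml while DMBA started tumors in the back skin and repeated TPA promoted them. TG mice also carried *K5-rtTA*, in which the keratin 5 promoter drives the transactivator in basal keratinocytes and so turns the allele on, while CTR littermates lacked it. Doxycycline was given throughout, whereas TPA was applied only in the first part of the protocol and was followed by weeks of observation without it. Papillomas were collected either when the protocol ended or at the humane endpoint, and which applied to which mouse is not given in the sources used here. The time from the last TPA dose to collection is likewise not given for each mouse. Abundance was measured as FPKM, the fragments of a gene per kilobase of transcript and scaled to the mapped fragments of the library. The deposited *Nanog* value does not separate the transgene from the endogenous gene.

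Plasminogen, the zymogen encoded by *Plg*, is made mainly by the liver and is cut into plasmin, a protease that dissolves fibrin and degrades extracellular matrix. The cut is made by urokinase (*Plau*), which is held at the cell surface by its receptor uPAR (*Plaur*), or by tissue-type plasminogen activator (*Plat*). Serpins block the activators (protease nexin-1, from *Serpine2*) or plasmin itself (alpha2-antiplasmin, from *Serpinf2*), and annexin A2 (*Anxa2*), bound to S100A10, docks plasminogen and tPA on the plasma membrane. In skin, urokinase and its receptor are known from keratinocytes that migrate over wounds and from the edges of invading carcinomas.

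The set of RefSeq promoter windows used here (GRCm38.p6) held 4 of the 7 genes, *Plaur*, *Anxa2*, *Serpine2* and *Serpinf2*. The 250 bases before the start site of *Plaur* (chr7:24462233-24462482, plus strand), *Anxa2* (chr9:69453433-69453682, plus strand) and *Serpine2* (chr1:79858666-79858915, minus strand) are shown because they carry the receptor, the docking protein and the inhibitor compared below and differ in the AP-1 site, the element bound by Fos and Jun proteins that phorbol esters such as TPA are known to activate. Capitals mark that site, TGACTCA or its reverse complement TGAGTCA.
Plaur: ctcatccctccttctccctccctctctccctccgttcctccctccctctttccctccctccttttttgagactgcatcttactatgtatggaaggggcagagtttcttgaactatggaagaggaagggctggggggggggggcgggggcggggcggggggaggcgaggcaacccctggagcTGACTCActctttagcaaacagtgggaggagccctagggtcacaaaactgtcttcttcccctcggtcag
Anxa2: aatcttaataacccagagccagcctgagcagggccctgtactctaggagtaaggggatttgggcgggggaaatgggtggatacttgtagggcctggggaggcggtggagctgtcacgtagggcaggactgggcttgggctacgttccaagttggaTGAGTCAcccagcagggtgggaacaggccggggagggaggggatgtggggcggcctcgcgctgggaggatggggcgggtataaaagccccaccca
Serpine2: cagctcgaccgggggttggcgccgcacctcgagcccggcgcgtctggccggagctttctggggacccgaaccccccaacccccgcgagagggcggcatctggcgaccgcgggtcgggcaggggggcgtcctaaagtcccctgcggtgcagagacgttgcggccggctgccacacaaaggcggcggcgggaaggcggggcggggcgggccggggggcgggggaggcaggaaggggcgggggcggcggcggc
In windows of 250 bases before to 50 after the start, an AP-1 site began 69 bases upstream in *Plaur*, on the strand of the gene, and 95 bases upstream in *Anxa2*, on the other strand. *Serpine2* and *Serpinf2* had none with these letters, and 5.2% of 32851 mouse promoter windows held the motif. The *Serpine2* window sits at the start of the locus as listed in these data (79858665). A second annotation, GENCODE, begins the gene further upstream, at 79861180, and no window was searched there. The GC box GGGCGG, searched on both strands, occurred 3 times in *Plaur*, 3 times in *Anxa2*, 6 times in *Serpine2* and 0 times in *Serpinf2*, and in 35.7% of all windows. The letters TATAAA were found in *Anxa2*, from 17 bases upstream of its start site, and in 13.6% of windows. The *Serpine2* window was the richest in G and C of the 4 (77.7%, against 57.3 to 63.7% in the others). These are matches of letters and not bound sites.

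The transgene was checked first. *Nanog* was 2.70, 2.84, 12.7 and 3.34 FPKM in CTR 1 to 4 and 36.9, 57.4 and 66.9 FPKM in TG 1 to 3, so that every TG papilloma lay above every CTR papilloma. The log2 difference was 3.45 (limma standard error 0.48), and its p-value adjusted by limma over all 12299 genes was 0.400. At an adjusted p under 0.05 limma called 0 genes in either direction (0% of 12299). At an unadjusted p under 0.05 it called 598 genes higher in TG (4.86%) and 241 lower (1.96%), and every TG papilloma lay above every CTR papilloma for 606 genes (4.93%). The median log2 difference of all genes fitted was 0.06. Depth, inferred from the width of the Cufflinks intervals, ranged from 10074859 to 15710562 reads and was highest in CTR 3 and TG 1. TG 3 stood apart from the other libraries, with a median of 1.04 FPKM against 0.481 to 0.596, and it was the highest of the 7 papillomas for 5050 of the genes fitted (41.1%). Values without TG 3 are therefore given beside each result that rests on it.

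*Plau*, the urokinase gene (chr14:20836662-20843388, plus strand), was more abundant in every TG papilloma than in any CTR papilloma. It measured 11.9, 12.8, 7.27 and 18.6 FPKM in CTR 1 to 4, and 39.8, 32.9 and 34.2 FPKM in TG 1 to 3. The 3 TG values lay close together and above all 4 CTR values, and the lowest of them exceeded the highest CTR value (32.9 against 18.6 FPKM). Group means were 35.6 ± 3.64 (SD, n = 3) and 12.6 ± 4.64 FPKM (SD, n = 4), a ratio of 2.82. The log2 difference was 1.52 with a standard error of 0.32 over papillomas. It was 1.55 without TG 3 and 1.21 among the 5 papillomas of lower depth (without CTR 3 and TG 1). The difference ranked 59th from the highest among the 12299 genes fitted. In order of abundance within a library, *Plau* stood between places 2512 and 5242 in CTR papillomas and between 1189 and 1467 in TG papillomas. In RNA of whole papillomas, a change in the number of cells of a type and a change in RNA per cell cannot be told apart. This holds here and for every gene below.

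The reads behind these values were ample. The intervals implied 487, 544, 459 and 702 reads of *Plau* in CTR 1 to 4, and 2260, 1317 and 1349 in TG 1 to 3. The interval of a single library extended 4.21 to 9.34% to either side of the value, which covers counting error only. Among CTR papillomas alone, *Plau* varied 2.55-fold from lowest to highest, far beyond this counting error.

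**Figure D1:**
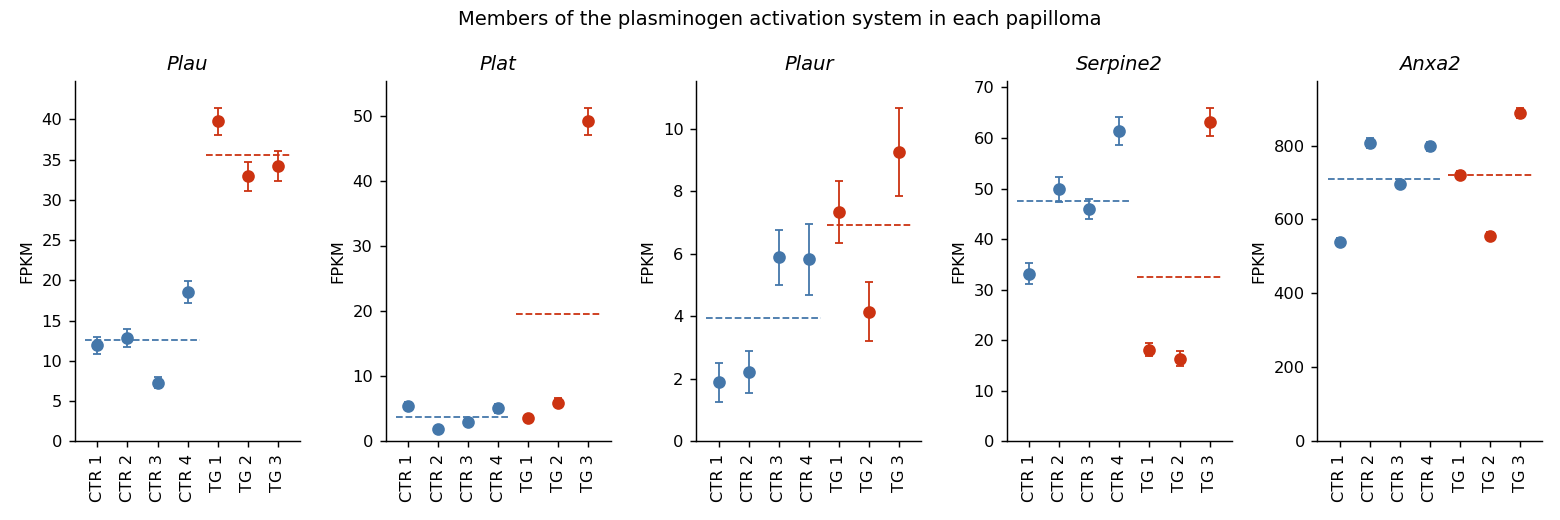
FPKM (linear axes starting at 0, each panel with its own scale) of the 5 genes that averaged 0.5 FPKM or more, in CTR papillomas (blue) and TG papillomas (red). Points are single papillomas, bars the Cufflinks intervals and dashed lines the group means. *Plau* alone of the 5 separates the groups, from 18.6 FPKM in the highest CTR to 32.9 FPKM in the lowest TG papilloma. Every TG papilloma lay above every CTR papilloma for 4.93% of all genes fitted. *Plat* is high in TG 3 (49.2 FPKM) and *Serpine2* is low in TG 1 and TG 2.

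*Plat*, the tissue-type activator gene (chr8:22757744-22782848, plus strand), owed its high TG mean to a single papilloma. It measured 5.43, 1.899, 2.91 and 5.06 FPKM in CTR 1 to 4, and 3.57, 5.97 and 49.2 FPKM in TG 1 to 3. TG 1 lay inside the CTR range, TG 2 stood just above it, and TG 3 held 83.7% of the summed TG level. TG papillomas averaged 19.6 ± 25.7 FPKM (SD, n = 3), against 3.82 ± 1.70 (SD, n = 4). The log2 difference of 1.43 (standard error 1.00) dropped to 0.34 without TG 3. In TG 3 *Plat* was the 971st most abundant gene, against places 5863 to 9062 in the other 6 papillomas. Implied reads were 2161 in TG 3 and 120 to 295 elsewhere.

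The activators therefore differed in how the TG papillomas shared them. *Plau* was similar in TG 1, TG 2 and TG 3, whereas *Plat* in TG 3 was far above either of the others. *Plau* made up 68.7 to 87.1% of the summed *Plau* and *Plat* FPKM in CTR papillomas. That share reached 91.8% in TG 1 and 84.6% in TG 2, and was 41.0% in TG 3, where *Plat* was the more abundant of the pair. The summed level was 17.3, 14.7, 10.2 and 23.6 FPKM in CTR 1 to 4 and 43.3, 38.9 and 83.3 FPKM in TG 1 to 3, with no overlap between the groups. Its log2 difference was 1.72 (standard error 0.41), or 1.38 without TG 3.

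*Plaur*, which encodes the receptor that focuses urokinase at the cell surface (chr7:24462500-24475873, plus strand), had a higher mean in TG papillomas, with overlap between the groups. It measured 1.88, 2.23, 5.88 and 5.83 FPKM in CTR 1 to 4, and 7.33, 4.15 and 9.25 FPKM in TG 1 to 3. TG 1 and TG 3 lay above every CTR papilloma, and TG 2 lay between the low CTR pair and the high one. Means were 6.91 ± 2.58 (SD, n = 3) and 3.96 ± 2.20 FPKM (SD, n = 4), with a log2 difference of 0.81 (standard error 0.52). Without TG 3 the difference was 0.58. With papillomas weighted by the quality limma estimated for each, the difference dropped to 0.12. Those weights were highest for TG 2 (3.11), the TG papilloma with the least *Plaur*, and lowest for TG 3 (0.272). *Plaur* was the least deeply covered of the 5 genes, with 37 to 213 implied reads in a library and intervals of 13.7 to 32.9% to either side. *Plaur* varied 3.12-fold among CTR papillomas and was highest in CTR 3 and CTR 4, yet *Plau* was lowest in CTR 3 and highest in CTR 4. The ratio of *Plau* to *Plaur* overlapped between the groups, at 1.24 to 6.33 in CTR and 3.69 to 7.93 in TG papillomas.

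*Serpine2* encodes protease nexin-1, a cell-associated serpin that inactivates urokinase, tPA and thrombin (chr1:79794321-79858665, minus strand), and it was the most abundant serpin among the 7 genes. It measured 33.2, 49.8, 46.0 and 61.3 FPKM in CTR 1 to 4, and 18.2, 16.4 and 63.2 FPKM in TG 1 to 3. TG 1 and TG 2 lay below every CTR papilloma, and TG 3 above every one. Means were 32.6 ± 26.5 (SD, n = 3) and 47.6 ± 11.6 FPKM (SD, n = 4). The log2 difference was -0.79 (standard error 0.56) with TG 3 and -1.40 without it. For all genes fitted, every TG papilloma lay below every CTR papilloma in 274 (2.23%), and *Serpine2* was not among them. It rested on 538 to 2171 implied reads in a library, with intervals of 4.29 to 8.62% to either side.

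*Serpinf2*, the gene of the plasmin inhibitor alpha2-antiplasmin (chr11:75431736-75439501, minus strand), was barely detected at this depth. Its level lay between 0 and 0.150 FPKM, on 0 to 8 implied reads, and it was listed at 0 in 2 of the 7 papillomas. *Plg* (chr17:12378609-12419384, plus strand) was listed at 0 in all 7 papillomas, which allows up to 3 reads in a library. No fold is given for either gene. Among liver genes in the same libraries, *Ttr* and *Fgb* were also listed at 0 in every papilloma, and *Alb* lay between 0 and 0.281 FPKM. Of the other liver markers, *Apoa1* reached at most 0.152 and *Apoh* at most 0.360 FPKM. *Trf* lay between 0.651 and 7.30 FPKM and was highest in TG 3.

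*Anxa2*, the annexin that docks plasminogen and tPA (chr9:69453683-69491785, plus strand), was by far the most abundant of the 7 genes. It measured 540, 807, 697 and 797 FPKM in CTR 1 to 4, and 720, 555 and 889 FPKM in TG 1 to 3. The groups overlapped along nearly their whole range, and the gene stood between places 36 and 117 by abundance in every library. Means were 721 ± 167 (SD, n = 3) and 710 ± 124 FPKM (SD, n = 4), with a log2 difference of 0.01 (standard error 0.23). Counting error was small here, with intervals of under 2% (1.37% at the narrowest) to either side. An antisense gene, *Gm16144*, shares 2570 bases with the *Anxa2* locus, and whether strand was used in counting is not given in the sources used here. Transcripts of its partner *S100a10* per transcript of *Anxa2* (a ratio of FPKM) were 0.241 to 0.277 in CTR papillomas and 0.388, 0.231 and 0.280 in TG 1 to 3.

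Levels per transcript length put the 5 genes in the order *Anxa2*, *Serpine2*, *Plau*, then *Plat* and *Plaur* in CTR papillomas. *Plat* and *Plaur* were not separated there, since their means of 3.82 and 3.96 FPKM differed by less than either SD. In TG 1 and TG 2, *Plau* stood above *Serpine2*, and in TG 3 *Serpine2* (63.2 FPKM) stood above *Plat* (49.2 FPKM) and *Plau* (34.2 FPKM).

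Ratios taken inside a library do not depend on its scaling. *Plau* per *Serpine2* was 0.359, 0.257, 0.158 and 0.303 in CTR 1 to 4, and 2.19, 2.01 and 0.541 in TG 1 to 3. All 4 CTR papillomas thus held more nexin-1 than urokinase transcripts, and TG 1 and TG 2 held the reverse. TG 3 lay above every CTR papilloma but, like them, held more nexin-1 than urokinase transcripts. *Plau* and *Plat* together per *Serpine2* came to 0.523, 0.295, 0.221 and 0.385 in CTR 1 to 4, and to 2.39, 2.37 and 1.32 in TG 1 to 3. All 3 TG papillomas were above 1 and all 4 CTR papillomas below it, and the lowest TG value was 2.52 times the highest CTR value. The log2 difference was 2.53 (standard error 0.39), 2.81 without TG 3 and 2.18 among papillomas of lower depth. *Plat* per *Serpine2* was 0.0381 to 0.164 in CTR papillomas and 0.197, 0.365 and 0.779 in TG 1 to 3. These ratios were formed from the same values as the levels and are no separate evidence for them. They count *Serpine2* as the only inhibitor. *Serpinb2* (PAI-2), a further urokinase inhibitor, was at 92.8 to 164 FPKM in CTR and 99.9 to 158 FPKM in TG papillomas. It stood above the summed activators in every papilloma, so a ratio above 1 does not set the activators above all inhibitors.

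**Figure D2:**
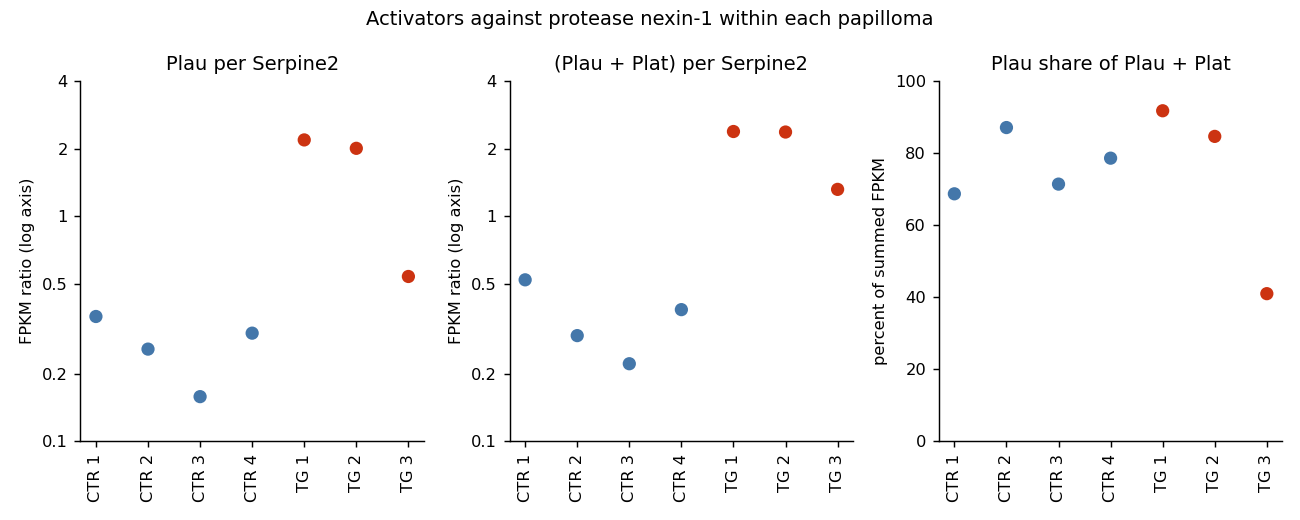
Ratios of FPKM inside each papilloma, CTR in blue and TG in red. The first panel plots *Plau* per *Serpine2* and the second the summed activators per *Serpine2* (log axes), and the third the percent of the summed activators that is *Plau* (linear axis). The summed activators per *Serpine2* lie between 0.221 and 0.523 in CTR and between 1.32 and 2.39 in TG papillomas, and the *Plau* share is lowest in TG 3 (41.0%).

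TG 3 also stood apart in markers of other cell types, and these values stand beside its *Plat* and *Serpine2* levels. The 7 fibroblast markers summed to 684 FPKM in TG 3, against 74.9 to 130 in CTR papillomas and 87.9 to 90.7 in TG 1 and TG 2, and 7 of 7 were highest in TG 3. Skeletal muscle markers summed to 592 FPKM in TG 3 and to at most 3.50 elsewhere, again with 7 of 7 highest in TG 3. Macrophage markers reached 129 FPKM in TG 3, against at most 43.0 in the other papillomas, with 5 of 6 highest in TG 3. The 4 neutrophil markers found summed to 28.8 FPKM in TG 3 and to at most 11.8 elsewhere. Fibroblasts and macrophages are known to make components of the system, and the part of these cells in the TG 3 values was not tested.

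Endothelial cells are a known source of tPA. Their 7 markers summed to 23.6, 12.8 and 32.7 FPKM in TG 1 to 3, and to 9.51 to 15.5 in CTR papillomas. *Plat* in TG 1 was 3.57 FPKM, within the CTR range, at an endothelial sum above every CTR papilloma. Keratinocyte markers summed to 18757 and 15903 FPKM in TG 1 and TG 2, above the 8771 to 12133 of CTR papillomas, and to 7272 in TG 3. The basal keratin gene *Krt14* made up the largest part of the sum, at 10937, 7561 and 4717 FPKM in TG 1 to 3 and 5494 to 7874 in CTR papillomas. *Krt10*, the keratin of differentiating layers, was at 3150 and 3133 FPKM in TG 1 and TG 2, 181 in TG 3 and 917 to 1440 in CTR papillomas. *Krt1*, also of differentiating layers, was at 1517, 3309 and 133 FPKM in TG 1 to 3 and 187 to 807 in CTR papillomas. *Lor*, a further differentiation marker, was at 1329, 690 and 366 FPKM in TG 1 to 3 and 618 to 1555 in CTR papillomas. *Serpine2* was lowest in the pair of papillomas in which *Krt10* and *Krt1* were highest. In that pair *Lor* lay within the CTR range. *Plau* was within 32.9 to 39.8 FPKM in all 3 TG papillomas across these differences. T cell markers summed to 0.977 to 2.33 FPKM in CTR and 1.29 to 2.47 FPKM in TG papillomas. The 5 adipocyte markers summed to 1374 to 3228 FPKM in CTR and 1545 to 2269 FPKM in TG papillomas, nearly all of it *Fabp4*. The other 4 adipocyte markers were each highest in TG 3, where *Cfd* was 26.0 FPKM, *Adipoq* 3.34, *Retn* 2.81 and *Plin1* 0.824 FPKM, and each was at most 0.111 FPKM elsewhere. Hepatocyte markers summed to at most 7.84 FPKM, in TG 3, where *Trf* alone was 7.30 FPKM. Defining keratinocyte genes were present in every library, with *Krt5* at 942 to 1783 FPKM. The part of cell composition in the levels of the 7 genes was not tested.

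**Figure D3:**
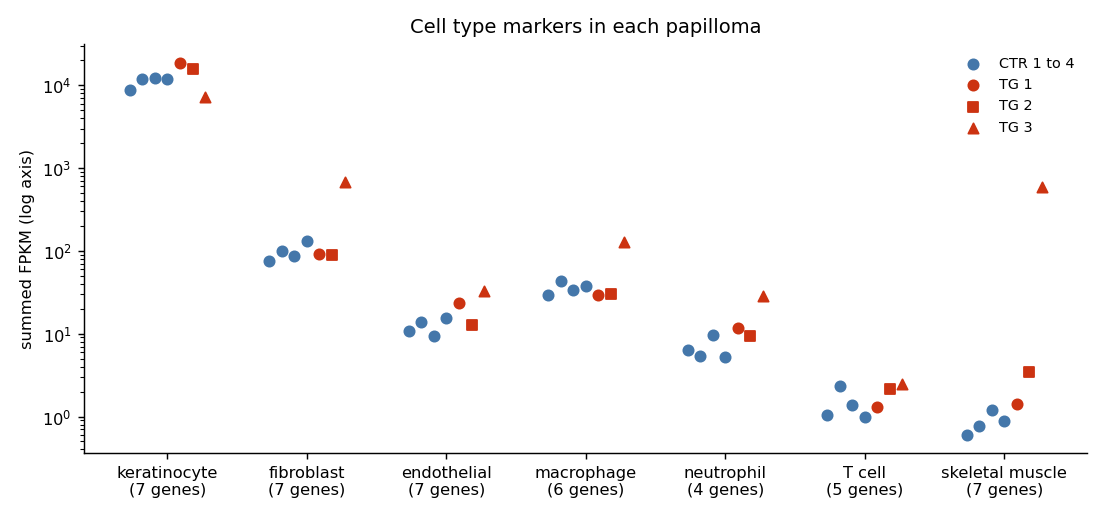
Summed FPKM (log axis) of marker genes for 7 cell types in each papilloma, CTR in blue and TG in red with a shape for each TG papilloma. TG 3 (triangles) is the highest for fibroblast (684) and skeletal muscle markers (592) and the lowest for the keratinocyte sum (7272). Of the 7 keratinocyte markers, 2 (*Krt5* and *Krt15*) are nonetheless highest in TG 3.

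The genes around the 7 members were read from 5 lists by role, 54 genes in all, of which 36 passed the filter and were fitted. None passed limma at an adjusted p under 0.05 in either direction, with adjusted p from 0.564 to 0.995 (0% of all genes fitted passed as well). At an unadjusted p under 0.05, 5 were higher in TG (13.9% of 36, against 4.86% of all genes fitted) and 0 lower. The count was 2 higher and 1 lower without TG 3, 2 higher and 1 lower with quality weights, 3 higher without CTR 1, CTR 2 or CTR 3, and 9 higher without CTR 4. Groups did not overlap for 2 of the 36 (5.56%, against 4.93%), and 21 were highest in TG 3 (58.3%, against 41.1%).

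Of 6 further inhibitors, 2 were fitted and neither separated the groups. *Serpinb2* (PAI-2), the urokinase inhibitor that is abundant in keratinocytes, had the highest mean of the list. It was 134 ± 32.4 FPKM in CTR (SD, n = 4) and 126 ± 29.3 FPKM in TG papillomas (SD, n = 3), and differed by -0.08 on the log2 scale (limma adjusted p = 0.981). It exceeded *Serpine2* in every papilloma.

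Of 14 genes for surface binding, docking and clearance, 12 were fitted. *S100a10*, which binds annexin A2, had the highest mean, at 182 ± 32.9 FPKM in CTR (SD, n = 4) and 219 ± 80.0 FPKM in TG papillomas (SD, n = 3), with adjusted p = 0.942 from limma. *Mrc2* (uPARAP or Endo180), a collagen receptor that associates with uPAR, was the one gene of this list whose groups did not overlap. It measured 0.953, 0.937, 0.782 and 1.21 FPKM in CTR 1 to 4, and 2.22, 1.59 and 2.74 FPKM in TG 1 to 3. Its log2 difference was 0.85 (limma standard error 0.23, adjusted p = 0.564), and 0.71 without TG 3. The median log2 difference of the list was 0.29, against 0.06 over all genes fitted, and -0.0015 without TG 3, so this median rested on TG 3. *5033414D02Rik* was matched to the plasminogen receptor gene *Plgrkt* by its synonym.

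Of 8 other proteases that activate pro-urokinase or plasminogen, 3 were fitted and none separated the groups. *Ctsl*, the lysosomal cathepsin L, had the highest mean, at 161 ± 31.4 FPKM in CTR (SD, n = 4) and 152 ± 26.3 FPKM in TG papillomas (SD, n = 3), with adjusted p = 0.979 from limma. The median log2 difference of the list was 0.09, and -0.18 without TG 3.

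Substrates of plasmin had the highest median of the 5 lists, 0.91 on the log2 scale over 10 fitted genes of 15, and 0.44 without TG 3, against 0.06 and -0.03 for all genes fitted. 6 of the 10 were highest in TG 3. The 3 fibrinogen chain genes *Fga*, *Fgb* and *Fgg* were listed at 0 in all papillomas.

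Of 11 annexins other than *Anxa2*, 9 were fitted, with a median log2 difference of 0.06, the same as over all genes fitted. *Anxa1*, the anti-inflammatory annexin abundant in squamous epithelium, had the highest mean and ranged from 1629 to 2173 FPKM in CTR papillomas, at 1439 and 1325 in TG 1 and TG 2 and 3799 in TG 3 (adjusted p = 0.986 from limma). Like *Serpine2*, it was below every CTR papilloma in TG 1 and TG 2 and above every one in TG 3. *Anxa11* was the annexin whose groups did not overlap. It measured 12.4, 13.3, 15.8 and 20.2 FPKM in CTR 1 to 4, and 24.2, 25.1 and 24.1 FPKM in TG 1 to 3, with a log2 difference of 0.68 (limma standard error 0.19, adjusted p = 0.587), and 0.69 without TG 3.

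**Figure D4:**
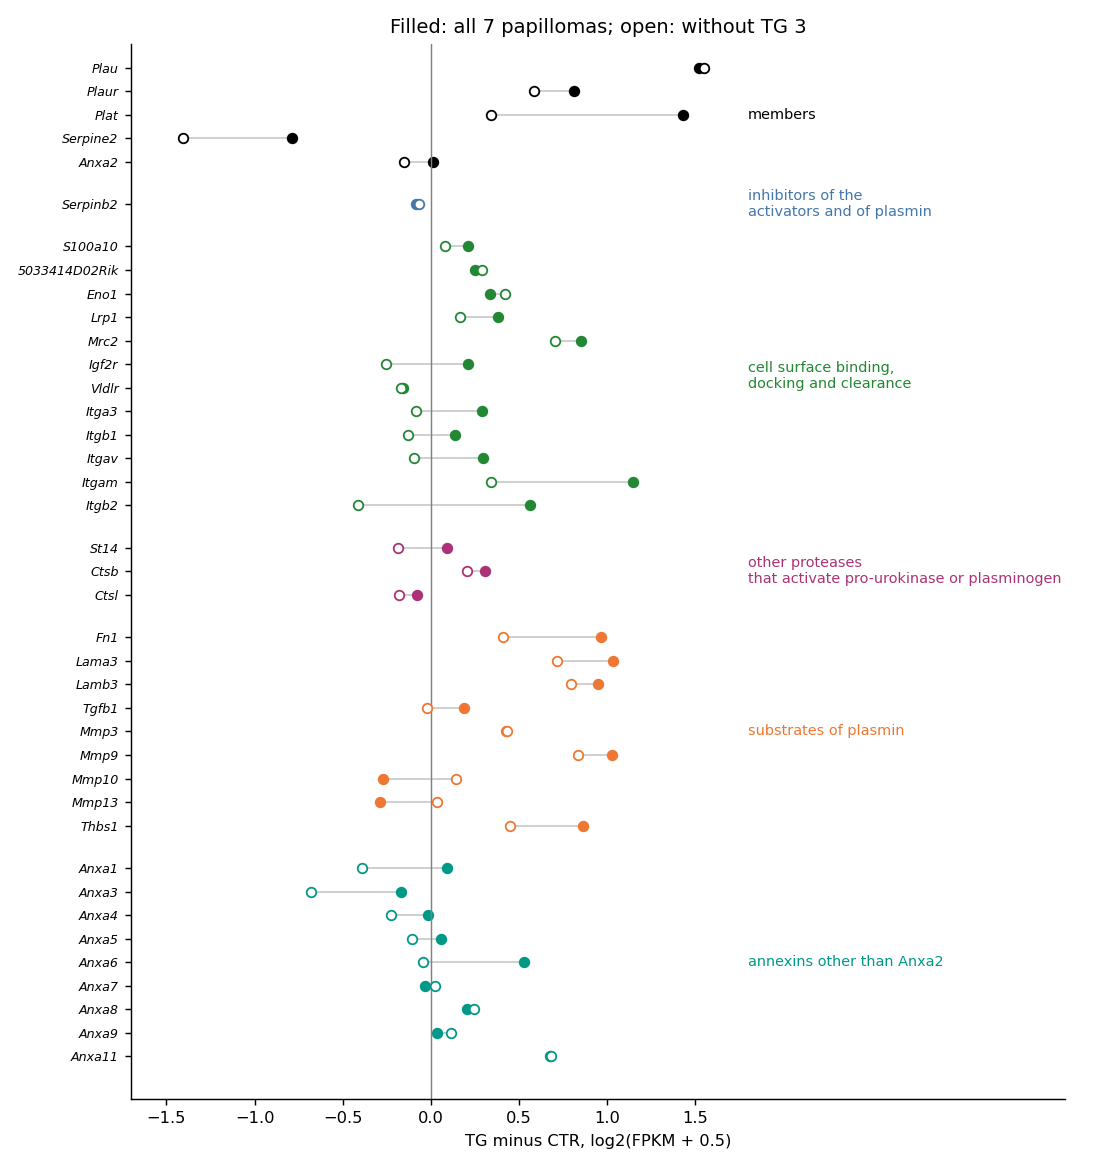
TG minus CTR difference of mean log2(FPKM + 0.5) for the 5 members fitted and the fitted genes of the 5 lists that are reported here, with all 7 papillomas (filled) and without TG 3 (open). *Plau* keeps nearly the same value (1.52 and 1.55), *Plat* moves from 1.43 to 0.34 and *Serpine2* from -0.79 to -1.40.

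Finally, the fitted genes with the most similar pattern over the 7 papillomas were found for each of the 5 genes. Likeness was the mean absolute difference of log2(FPKM + 0.5) after centring each gene on its own mean, so smaller is closer. For *Plau* the nearest were *Galt* (0.27), *Ccr3* (0.28) and *Psg23* (0.28), each higher in every TG than in every CTR papilloma. For *Plaur* they were *Fads3* (0.19), *Col7a1* (0.19) and *Ehbp1l1* (0.21). For *Plat* they were *Fpr2* (0.28), *Hspb6* (0.29) and *Cxcl3* (0.29), of which *Cxcl3* measured 94.3 FPKM in TG 3 and 3.37 to 7.10 FPKM elsewhere.
The nearest to *Serpine2* were *Slit2* (0.15), *Zbed3* (0.18) and *Foxc1* (0.19), and all 3 had lower values in TG 1 and TG 2 than in any other papilloma. *Foxc1*, for example, was 1.57 and 1.64 FPKM in TG 1 and TG 2, 6.94 in TG 3 and 4.37 to 5.41 in CTR papillomas. For *Anxa2*, whose level varied little, the nearest were *Fgd1* (0.07), *Reep5* (0.07) and *Dap* (0.08). Within a distance of 0.25 there were 0 genes for *Plau*, 5 for *Plaur*, 0 for *Plat*, 16 for *Serpine2* and 3129 for *Anxa2*. The genes were picked for likeness over these same values, so a pattern shared with the member largely follows from the choice. *Ccr3* (0.062 to 0.65 FPKM in CTR papillomas) and *Fpr2* (0 to 0.345 FPKM outside TG 3) lay near the added 0.5 FPKM. With 7 papillomas, such likeness is a description of these libraries only.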

How the data were processed

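PolyA+ RNA of 7 papillomas was sequenced on stranded libraries as single reads of 40 bases. By the submitters' notes, Cufflinks 1.3.0 followed TopHat2 2.0.4 (with Bowtie 0.12.7, and SAMtools 0.1.16) on GRCm38/mm10. The authors deposited FPKM values, each with an interval and a status, separately for each papilloma. Entries with the same symbol were summed (240 symbols), and 162 symbols with a failed estimate in any file were left out. Locus starts were converted to count from 1. Reads behind a value were inferred from the interval width, and are approximate. Log2(FPKM + 0.5) of genes averaging 0.5 FPKM or more was fitted with limma 3.58.1 (R 4.3.3) with a variance trend and Benjamini-Hochberg adjustment at 0.05, after tests on simulated data. FPKM are not counts, so no count test was used, and a difference on this scale understates that of low genes. P-values weigh a TG minus CTR difference against the variation between these papillomas. For this, limma moderates the variance of each gene toward a trend over all genes fitted. The 7 members and the gene lists were chosen with earlier results of these data known. Beside the members, the named genes are *Nanog*, the genes of each list that passed limma or, failing that, did not overlap between groups, the gene of each list with the highest mean, and the 3 genes most like each member. Among the listed genes, 2 are not reported here by name. Cuffdiff could not be run, since it works on alignments. Promoters are from RefSeq. Figures were drawn with matplotlib 3.10.9 from tables made with Python 3.11.15.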

Additional observations from a re-analysis of the deposited data

Results flagged for a closer look

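In groups of 4, a sample was flagged when its gap to the nearest other sample was larger than Dixon's 95% limit allows for the group's range. Of 58 quantities examined 6 were flagged, where chance flags about 1 in 20. *Nanog* was 12.7 FPKM in CTR 3 and 2.70 to 3.34 FPKM in the other CTR papillomas. CTR 4 was flagged for 3 matrix metalloproteinase genes that plasmin is known to activate. *Mmp9* was 29.2 FPKM there and 1.19 to 2.18 in the other CTR papillomas, *Mmp10* was 12.46 against 1.55 to 2.49, and *Mmp13* was 53.1 against 3.01 to 8.01 FPKM. CTR 4 was also the CTR papilloma with the highest *Plau* (18.6 FPKM), which was not itself flagged. The sum of keratinocyte markers was 8771 FPKM in CTR 1, with the other CTR papillomas at 11994 to 12133. The sum of hepatocyte markers was 2.56 FPKM in CTR 2 against 1.07 to 1.16, most of it *Trf* (2.51 FPKM).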

How the results depend on the processing

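Of 471 comparisons of 27 results with an alternative, 437 were labelled unchanged. For member differences, ratios and list medians this meant a shift below the pooled SD over papillomas. A changed sign counted only where the value exceeded its standard error. Counts of genes had to stay within a set fold, and other named genes to keep their direction and side of the threshold. The pooled SD includes TG 3, so *Plat* at 0.34 without TG 3 (1.43 with it) was labelled unchanged. The members kept their direction except *Anxa2*, whose difference is near 0. Leaving out each papilloma in turn, the log2 difference of *Plau* ranged from 1.295 to 1.73, of *Plaur* from 0.56 to 1.12, of *Plat* from 0.34 to 2.15, of *Serpine2* from -1.40 to -0.45 and of *Anxa2* from -0.15 to 0.19. Implied reads scaled to the library's implied total, an alternative chosen after seeing the data, gave 1.47 for *Plau* and 1.36 for *Plat*. With sample quality weights the difference of *Plaur* moved to 0.12. With those weights an adjusted p under 0.05 was reached by 49 genes higher in TG and 36 lower (0 and 0 without weights), and there were 1161 and 1248 at an unadjusted p (598 and 241 without), and among the pathway genes 2 higher and 1 lower at an unadjusted p (5 and 0 without). At an adjusted p, 1 gene was higher among papillomas of lower depth only. Leaving out a papilloma gave 0 to 2 genes higher and 0 to 1 lower at an adjusted p, with 1 higher without CTR 3, 2 higher without TG 1, and 1 higher and 1 lower without TG 3. At an unadjusted p it gave 364 to 825 higher and 122 to 539 lower, where CTR 3 gave the 364, TG 2 the 122 and TG 3 the 539, and without CTR 3 there were 134 lower. With no filter 961 genes were higher at an unadjusted p, and 418 were lower with upper-quartile scaling and 551 with quantile normalization. Pathway genes higher at an unadjusted p numbered 2 with no filter, 3 among papillomas of lower depth and 2 to 9 with a papilloma left out (2 without TG 3, 9 without CTR 4, and 3 without CTR 1, CTR 2 or CTR 3), and 0 to 1 were lower. At an adjusted p none was called under any alternative run. *Nanog* passed at an adjusted p of 0.00362 without CTR 3, 0.00374 at lower depth and 0.0320 with quality weights, within a range of 0.00362 to 0.774. The adjusted p of *Mrc2* ranged from 0.145 to 0.999 and of *Anxa11* from 0.126 to 0.999. Without TG 3 the median of the surface binding list was -0.0015, against 0.29 with it and 0.49 without TG 2, and that of the other proteases was -0.18 (0.39 without TG 2). The cause of these shifts was not tested.

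The groups share replicate numbers 1 to 3, but deviations of same-numbered papillomas correlated at -0.186, 0.0431 and -0.146, so the numbers do not pair them. The replicate block, in which CTR 4 has no partner and drops out, gave 1.73 for *Plau*, 1.03 for *Plaur*, 1.58 for *Plat* and -0.66 for *Serpine2*, 10 pathway genes higher at an unadjusted p, and 0 genes at an adjusted p. TG 1 deviated most like CTR 3 (0.312), the other library of higher depth. Depth limits what can be said of *Serpinf2* (0 to 8 implied reads) and *Plg* (listed at 0), and *Plaur* had the widest intervals of the 5 fitted members.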
